A study of Mus musculus with 6 samples.

Results

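The mitochondrial genome of the mouse encodes 37 annotated genes, and the transcripts of its protein genes were followed here in cultured CD8+ effector T (Teff) cells with and without Scd-1 (gene symbol Scd1), the enzyme that places the first double bond in saturated fatty acids. Members were all genes whose symbol begins with mt-, together with Gm10925, a nuclear gene whose transcript matches mt-Atp6. This rule took 14 of the 34745 genes listed for each library, namely the 13 mitochondrial protein genes and Gm10925. The 22 transfer RNA genes and 2 ribosomal RNA genes of the mitochondrial genome have no line in these tables and were not analysed here. The genes were chosen by name when their counts in these libraries were already known, so that their difference between genotypes is given as a description. No p-value is given for any member, and counts of members past a threshold stand beside the share of all genes past it, with nothing read from them.

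The series holds 6 libraries, 3 per genotype. The knockout was a germline allele, so every cell of the donor mice lacked Scd-1, and the strain was B6.129-Scd1tm1Ntam/J, whereas the WT mice were purchased C57BL/6J animals. The mice were male and 6 to 8 weeks old. In all 6 libraries, CD8+ T cells were isolated from spleen with a magnetic kit, stimulated for 3 days with anti-CD3 (5 µg/mL), anti-CD28 (0.5 µg/mL) and IL-2 (100 U/mL), kept for 3 days more in IL-2 without antibodies, and harvested on day 6. Genotype and source of the mice cannot be told apart, and although the methods speak of independent experiments in general, neither they nor the labels say whether the 3 libraries of a group came from separate mice or cultures. The p-values below therefore measure the spread between these libraries, which may be technical.

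Mitochondrial DNA is a small circular genome, present in many copies per cell and inherited from the mother. Its protein genes all encode subunits of the respiratory chain and ATP synthase, and the other subunits of these complexes are imported from the cytosol. Each strand is transcribed as a long precursor. The precursor is cut mainly at the transfer RNAs that lie between the other genes, so the levels of single messengers depend on processing and stability as well as on transcription. Of the protein genes, mt-Nd6 alone is encoded on the light strand. Activated T cells are known to expand their mitochondria after stimulation.

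The libraries held 14034479 to 15866216 counts. Between 14268 and 14971 genes had a count, and the 10 most abundant genes took 7.30% to 8.36% of a library. Replicate 1 of each genotype stood apart from replicates 2 and 3: the chi-square per degree of freedom between libraries of a group was 66.0 to 80.4 for pairs with replicate 1 and 14.9 to 18.3 for replicates 2 and 3. The 84 genes of cytosolic ribosomal proteins took 7.39% to 8.30% in WT and 7.46% to 8.17% in Scd-1-/- libraries. Scd1 had 4272, 3074 and 3761 counts in WT and 30, 36 and 20 in Scd-1-/- libraries, as labelled. The summed FPKM (counts relative to the length of the gene and the size of the library) of 9 CD8 T cell markers was 2028 to 2437 in WT and 1954 to 2298 in Scd-1-/- libraries. Of these 9, 2 were lower and 0 higher at an unadjusted p under 0.05 in edgeR, beside 4.68% and 5.42% of all genes tested. With the replicate number as a block 3 were lower and 0 higher, beside 11.2% and 11.3%. The summed FPKM of 4 CD4 T cell markers was at most 12.2 in any library. B cell markers summed to 9.42 to 10.7 FPKM in WT and 3.15 to 7.996 in Scd-1-/- libraries (Cd79b, the only one tested, had an adjusted p under 0.05 in edgeR with the replicate number as a block and not without it), with Ms4a1 and Pax5 listed at 0 throughout. Myeloid markers summed to 0.374 to 1.11 in WT and 1.88 to 2.24 in Scd-1-/- libraries, and erythroid markers to at most 0.787.

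Mitochondrial transcripts took a larger share of the library in every Scd-1-/- library than in any WT library. The 14 members held 1.82%, 1.70% and 1.804% of the counts in WT and 2.33%, 2.67% and 3.33% in Scd-1-/- libraries. The WT libraries lay close together, and the Scd-1-/- libraries were all higher and spread more widely. The mean share, with its SD over 3 libraries per group, was 1.77% ± 0.0636 in WT and 2.78% ± 0.506 in Scd-1-/- cells, a ratio of 1.57. Counting error is small beside this spread. The 95% Wilson interval was 1.69% to 1.71% for the WT library with the lowest share and 3.32% to 3.34% for the Scd-1-/- library with the highest, and such intervals cover counting error only. Between libraries of the same replicate number, the ratio of Scd-1-/- to WT was 1.28, 1.57 and 1.84. On the log2 scale the ratio of the means was 0.65, and 0.78 without replicate 1 of both groups. In RNA from whole cultures, more cells of a kind and more RNA of a kind per cell cannot be told apart.

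**Figure D1:**
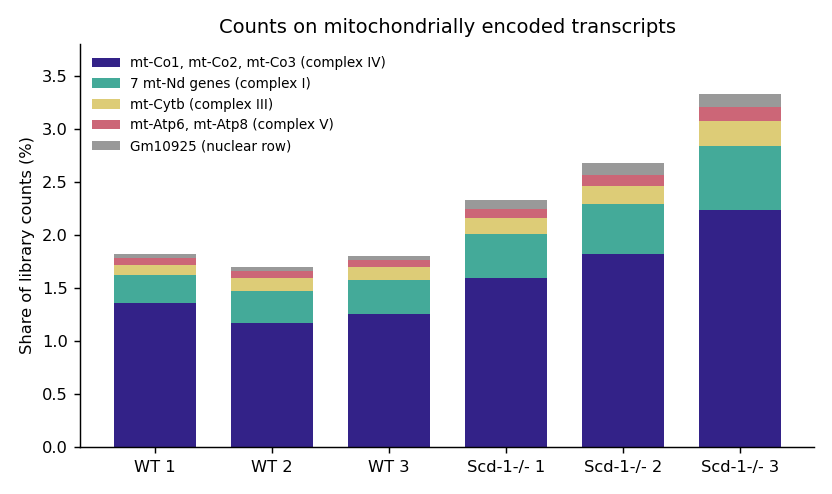
Share of library counts, in percent, on the members in each of the 6 libraries, stacked by the complex that the gene belongs to, with the nuclear gene Gm10925 on top. The 3 WT bars end between 1.70% and 1.82%, and the 3 Scd-1-/- bars between 2.33% and 3.33%.

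NK cell markers moved with genotype in the same libraries. The summed FPKM of Ncr1, Klrb1c, Klre1, Eomes and Tyrobp was 7.81 to 9.85 in WT and 27.4 to 58.7 in Scd-1-/- libraries, with none of them at 0 throughout, and CD8 effector cells express several of these genes as well. Eomes passed an adjusted p under 0.05 in edgeR's quasi-likelihood test. With the replicate number as a block, and in DESeq2 without it, 4 of the 4 tested did. Their part in the mitochondrial share was not tested.

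The share can also be taken apart by complex. Complex IV (cytochrome c oxidase, which passes electrons to oxygen) held most of it, with 1.26% ± 0.0962 of the library in WT and 1.88% ± 0.327 in Scd-1-/- cells (SD, n = 3 each). The 7 genes of complex I (NADH dehydrogenase, the entry point for electrons from NADH) held 0.295% ± 0.0304 and 0.495% ± 0.0951. For mt-Cytb of complex III the values were 0.112% ± 0.0140 and 0.186% ± 0.0419, and for mt-Atp6 and mt-Atp8 of ATP synthase, complex V, 0.0652% ± 0.00308 and 0.108% ± 0.0234. In each of these 4 sums the lowest Scd-1-/- library was above the highest WT library, and the ratios of the means were 1.68, 1.65, 1.50 and 1.66 for complexes I, III, IV and V. Gm10925 went from 0.0417% ± 0.00396 to 0.105% ± 0.0198, a ratio of 2.52.

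On a scale per gene length, the group means of the 14 members had the same order in both genotypes. In WT the mean FPKM ran from 5241 for mt-Co1 through 3568 for mt-Co3, 2474 for mt-Co2, 2162 for mt-Atp8, 1502 for mt-Nd1 and 983 for mt-Cytb to 614 for Gm10925. Below these lay mt-Nd3 at 595, mt-Nd2 at 494, mt-Atp6 at 310.1, mt-Nd4 at 259, mt-Nd5 at 219.7, mt-Nd4l at 69.2 and mt-Nd6 at 36.7. Not every neighbour in this order was separate. In WT, Gm10925 (547 to 655 FPKM) lay inside the range of mt-Nd3 (477 to 730.1), mt-Nd3 overlapped mt-Nd2 (404 to 581), and mt-Nd4 (214 to 292) overlapped both mt-Atp6 (287 to 331) and mt-Nd5 (202 to 235). The levels of messengers cut from the same heavy-strand precursor thus ranged from 5241 FPKM for mt-Co1 to 219.7 for mt-Nd5, with the irregular mt-Nd4l left out. In Scd-1-/- cells, again without mt-Nd4l, the ranges of all neighbours from mt-Co1 down to mt-Nd4 overlapped, and single libraries departed from the order of the means for 4 pairs. There mt-Atp8 was above mt-Co2 in replicates 2 (3659.7 against 3080.5 FPKM) and 3 (4162 against 4151), and Gm10925 was above mt-Cytb in replicate 2 (1545 against 1477). Likewise mt-Nd2 was above mt-Nd3 in replicate 1 (750.4 against 651), and mt-Nd4 above mt-Atp6 in replicate 3 (687 against 679). Counts that can fall on more than 1 gene, described further on, enter these levels too.

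**Figure D2:**
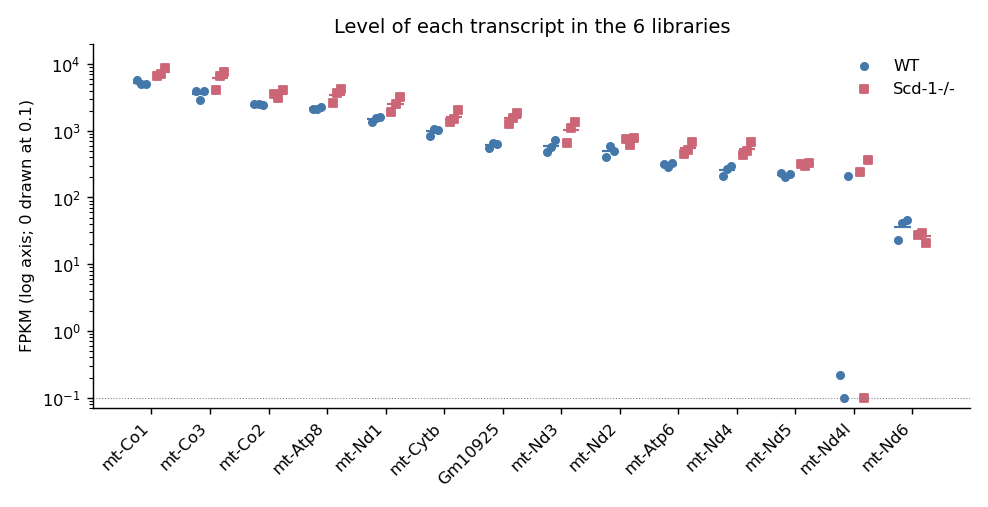
FPKM of each member on a log axis, with a point per library, circles for WT and squares for Scd-1-/- cells, and a bar at the mean of each group (none for mt-Nd4l). The genes run in the order of their mean level, from mt-Co1 (5241 FPKM in WT, 7484 in Scd-1-/- cells) to mt-Nd6 (36.7 and 26.1), and mt-Nd4l is at 0 in WT replicate 2 and Scd-1-/- replicate 2.

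The difference between genotypes ran through nearly all members. In edgeR, 13 of 14 had a log2 fold change (Scd-1-/- relative to WT) above 0, as did 49.9% of the 9627 genes tested. The median was 0.77 over the 14 and -0.00 over all genes tested. The 13 and the median of 0.77 include mt-Nd4l and, as separate genes, Gm10925 and mt-Atp6, which share bases. The 11 heavy-strand genes other than mt-Nd4l, whose counts were irregular, ranged from 0.54 to 1.08 with a median of 0.75. The groups did not overlap, with Scd-1-/- higher, in 11 of 14 members and in 7.67% of all genes tested, and the exceptions were mt-Nd3, mt-Nd4l and mt-Nd6. All 14 passed the minimum of 1 FPKM on average. The differences within replicate numbers were uneven, with ratios of 1.05, 2.27 and 1.98 for mt-Co3 and 1.86, 1.06 and 1.60 for mt-Nd2, against 1.37, 1.49 and 1.51 for mt-Nd5.

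**Figure D3:**
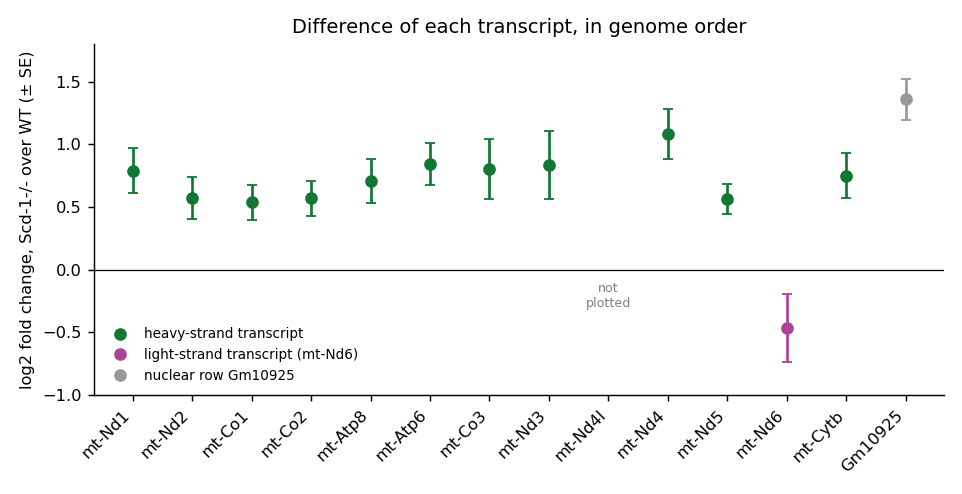
Log2 fold change of each member, Scd-1-/- over WT, with its SE from edgeR (n = 3 each), in the order of the genes on the mitochondrial genome, with Gm10925 last and mt-Nd4l not plotted. The heavy-strand genes lie between 0.54 and 1.08, mt-Nd6 of the light strand at -0.47 and Gm10925 at 1.36.

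An adjusted p under 0.05 in edgeR was reached by 1 of 14 members (Gm10925), where 0.0727% of all genes tested were called higher in Scd-1-/- cells. The thresholds of the study, an absolute log2 fold change of at least 1 with an unadjusted p under 0.001, were met by 2 (Gm10925 and mt-Nd4), beside 0.499% of all genes. With the replicate number as a block, 9 of 14 had an adjusted p under 0.05, beside 2.64% of all genes, and in DESeq2 8 of 14 did, beside 1.67%. Without Scd-1-/- replicate 1 the edgeR count was 7, where 1.89% of all genes were called in either direction. It was 0 when replicate 2 or 3 of either group was left out, where 0.0208% to 0.0623% of all genes were called. Since the members were chosen with this contrast known, nothing is read from these counts.

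The genes of complex IV were the most abundant by group means, although mt-Nd1 had more counts than mt-Co2 in Scd-1-/- replicates 2 and 3. The gene for the catalytic subunit that holds the oxygen-reducing centre, mt-Co1 (chrM:5328-6872, plus strand, GRCm38), had 8791, 7674 and 7826 CPM (counts scaled to an equal library size) in WT and 10269.9, 10914 and 13503 in Scd-1-/- libraries. It alone made up 43.4% to 48.4% of all member counts in WT and 40.6% to 44.03% in Scd-1-/- libraries. The difference between genotypes, as the log2 of the knockout over the WT level, was 0.54 (SE 0.143), the lowest of the heavy-strand genes. For mt-Co2 (chrM:7013-7696), whose product takes electrons from cytochrome c, the CPM was 1715, 1699.7 and 1662 in WT and 2465, 2107 and 2839 in Scd-1-/- libraries. The 3 WT values were within a few percent of each other and all below the Scd-1-/- values, with a log2 fold change of 0.57 (SE 0.138). mt-Co3 (chrM:8607-9390), the other core subunit, had 3061, 2271 and 3059 CPM in WT and 3221, 5154 and 6045 in Scd-1-/- libraries. Scd-1-/- replicate 1 was only just above the WT libraries, and the log2 fold change of 0.80 (SE 0.238) came mostly from the other two libraries.

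The end of mt-Co3 also shows how compact this genome is. The annotated gene stops at the T of a stop codon that is completed only when the messenger receives its poly(A) tail, and mt-Nd4 and mt-Cytb end in the same way. These last 25 bases are shown 5′ to 3′ from GENCODE M21 on GRCm38, all on the plus strand, with the incomplete stop codon in capitals.
mt-Co3, chrM:9366-9390: gtctccatttattgatgaggatctT
mt-Nd4, chrM:11520-11544: aaactaattacaggcctgacaataT
mt-Cytb, chrM:15264-15288: gacaaaatactaaaattatatccaT

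Complex I has 7 subunits encoded in mitochondria, all of them in the membrane arm that pumps protons. mt-Nd1 (chrM:2751-3707), at the joint with the ubiquinone site, was the most abundant, with 1291, 1492 and 1528 CPM in WT and 1859.9, 2445 and 3022 in Scd-1-/- libraries. The groups did not overlap, and the log2 fold change was 0.79 (SE 0.181). mt-Nd2 (chrM:3914-4951), an antiporter-like subunit, had 419, 604 and 515 CPM in WT and 779, 641 and 823 in Scd-1-/- libraries. Here the lowest Scd-1-/- library was close to the highest WT library, both of replicate 2, and the log2 fold change was 0.57 (SE 0.167). mt-Nd3 (chrM:9459-9806), a small subunit next to the joint of both arms, had 166, 201 and 254 CPM in WT and 226, 387 and 471 in Scd-1-/- libraries. Its groups overlapped, since Scd-1-/- replicate 1 was below WT replicate 3, although within each replicate number the Scd-1-/- library was higher (ratios of 1.36, 1.93 and 1.85). Its log2 fold change was 0.83 (SE 0.272).

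The largest difference among the mitochondrial genes with a count in every library was that of mt-Nd4 (chrM:10167-11544), whose product is one of the antiporter-like subunits of the membrane arm. It had 294, 373 and 403 CPM in WT and 587, 690.2 and 946 in Scd-1-/- libraries. The 3 Scd-1-/- values were all well above the WT values, and the log2 fold change was 1.08 (SE 0.201). mt-Nd5 (chrM:11742-13565), another antiporter-like subunit at the far end of the arm, had 428, 369 and 405 CPM in WT and 589, 549 and 610.4 in Scd-1-/- libraries. Both groups were tight, and the log2 fold change was 0.56 (SE 0.120), the smallest SE of the 14.

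The smallest complex I gene, mt-Nd4l (chrM:9877-10173), gave the least regular counts. It had 1, 0 and 876 counts in WT and 1106, 0 and 1692 in Scd-1-/- libraries. It was thus at or next to 0 in 3 libraries of both genotypes, and 0 counts leave room for up to 3, which is 0.214 CPM in WT replicate 2. In Scd-1-/- replicate 2, where mt-Nd4l had 0 counts, mt-Nd3 just before it had 5455 and mt-Nd4 just after it had 9736. No fold change is given for this gene. It runs into mt-Nd4 over 7 bases, in another reading frame. The last 30 bases of mt-Nd4l and the first 30 of mt-Nd4 are shown, with the shared bases in capitals.
mt-Nd4l, chrM:10144-10173: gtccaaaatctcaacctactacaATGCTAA
mt-Nd4, chrM:10167-10196: ATGCTAAaaattattcttccctcactaatg

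In contrast to the heavy-strand genes, mt-Nd6 (chrM:13552-14070, minus strand), a further subunit of the membrane arm, was not higher in Scd-1-/- cells. It had 12.1, 21.6 and 23.5 CPM in WT and 14.2, 15.5 and 10.97 in Scd-1-/- libraries. The groups overlapped, since WT replicate 1 was among the Scd-1-/- values. The log2 fold change was -0.47 (SE 0.275), and within replicate numbers the ratio was 1.17, 0.716 and 0.467. It was also the least abundant member, with raw counts of 174 to 334. As a percent of the mt-Nd5 count it was 2.83, 5.85 and 5.80 in WT and 2.41, 2.82 and 1.797 in Scd-1-/- libraries, where WT replicate 1 was next to the highest Scd-1-/- library. The sources used here do not say whether reads were counted by strand, and mt-Nd6 faces the end of mt-Nd5 over 14 bases. The last 40 bases of each gene are shown 5′ to 3′ on its own strand, with the facing bases, which are complementary, in capitals.
mt-Nd5, chrM:13526-13565, plus strand: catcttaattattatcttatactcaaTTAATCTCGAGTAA
mt-Nd6, chrM:13552-13591, minus strand: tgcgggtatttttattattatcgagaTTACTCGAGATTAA

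Complex III has a single mitochondrial gene, mt-Cytb (chrM:14145-15288), for the cytochrome b that carries the haems between both quinone sites. It had 965, 1226 and 1183 CPM in WT and 1546, 1689.9 and 2334 in Scd-1-/- libraries. The groups did not overlap, and the log2 fold change was 0.75 (SE 0.180).

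The 2 genes of ATP synthase share a messenger. mt-Atp8 (chrM:7766-7969) encodes a short membrane subunit and mt-Atp6 (chrM:7927-8607) the subunit that forms the proton channel, and their reading frames overlap by 43 bases. mt-Atp8 had 430.4, 431 and 461 CPM in WT and 534, 747 and 849 in Scd-1-/- libraries, a log2 fold change of 0.71 (SE 0.175). mt-Atp6 had 213, 196 and 225 CPM in WT and 309.8, 345 and 462 in Scd-1-/- libraries, a log2 fold change of 0.84 (SE 0.171). In both genes all Scd-1-/- libraries were above all WT libraries. Per gene length mt-Atp6 (310.1 FPKM in WT) was far below mt-Atp8 (2162 FPKM), although both are read from the same RNA.

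Gm10925 is the reason to look at mt-Atp6 again. It is an unprocessed pseudogene on chromosome 1 (chr1:24613974-24614651, minus strand), and its 678 bases match mt-Atp6 at 100% identity. It lacks only the last 3 bases, the stop codon. The start of mt-Atp6, the end of mt-Atp8 and the start of Gm10925 are shown, with the 43 bases common to mt-Atp8 and mt-Atp6 in capitals, followed by the ends of mt-Atp6 and Gm10925, with the bases beyond Gm10925 in capitals.
mt-Atp8, chrM:7910-7969: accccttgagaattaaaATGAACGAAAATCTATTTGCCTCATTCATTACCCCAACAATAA
mt-Atp6, chrM:7927-7986: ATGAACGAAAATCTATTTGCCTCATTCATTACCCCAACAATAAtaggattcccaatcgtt
Gm10925, chr1:24614592-24614651, minus strand: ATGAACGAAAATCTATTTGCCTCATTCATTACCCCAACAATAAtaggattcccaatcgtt
mt-Atp6, chrM:8578-8607: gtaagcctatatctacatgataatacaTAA
Gm10925, chr1:24613974-24614000, minus strand: gtaagcctatatctacatgataataca

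A read from inside these bases cannot be assigned to either gene by its sequence, and how such reads were divided is not given in the sources used here. Gm10925 had 371, 444 and 434 CPM in WT and 854, 1047 and 1249.6 in Scd-1-/- libraries. All Scd-1-/- values were far above all WT values, and the log2 fold change of 1.36 (SE 0.162) was the largest of the members with a count in every library. The count of Gm10925 exceeded that of mt-Atp6 in all 6 libraries, 1.74, 2.27 and 1.93 times in WT and 2.76, 3.03 and 2.70 times in Scd-1-/- libraries, and these ratios did not overlap. Summed, the pair had 584, 639.9 and 659 CPM in WT and 1164, 1392 and 1712 in Scd-1-/- libraries, and the Scd-1-/- mean was 2.27 times the WT mean. Against this sum, mt-Atp8 had 0.737, 0.674 and 0.700 counts per count in WT and 0.458, 0.536 and 0.496 in Scd-1-/- libraries. The ratio of mt-Atp8 to the pair was thus lower in all 3 Scd-1-/- libraries. The last 43 bases of mt-Atp8 are also those of the pair, so that shared reads can enter this ratio too.

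Gm10925 lies in a stretch of 4663 bases on chromosome 1 (24611535 to 24616197, minus strand). It holds annotated copies of 7 mitochondrial genes in the order of the mitochondrial genome. Such nuclear insertions of mitochondrial DNA are known from most animal genomes. The other copies are Gm29216 (a part of mt-Co1, 99.8% identity), Gm28661 (mt-Co2, 100%), Gm28437 (mt-Co3, 100%), Gm28438 (mt-Nd3, 99.7%), Gm10222 (mt-Nd4l, 100%) and Gm28439 (a part of mt-Nd4, 100%). They are not members by the rule, but they received counts in every library. No annotated copy of mt-Atp8 was found in this stretch, and the bases between the annotated copies were not examined. Gm28437 had 26.5%, 30.3% and 27.8% of the count of mt-Co3 in WT and 27.5%, 27.4% and 27.0% in Scd-1-/- libraries. Gm28661 had 24.8% to 27.3% of the count of mt-Co2, and Gm28438 had 24.9% to 28.3% of that of mt-Nd3, over all 6 libraries. In these copies the percent hardly differed between libraries while the counts themselves varied with those of the mitochondrial gene. Gm10925 stood apart from the copies beside it, with 174%, 227% and 193% of the mt-Atp6 count in WT and 276%, 303% and 270.4% in Scd-1-/- libraries.

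The copies that cover only a part of their gene had less. Gm28439 had 10.1% to 12.9% of the count of mt-Nd4 and Gm29216 had 4.66% to 6.07% of that of mt-Co1, again with overlapping groups. Gm10222 had 24.3%, 26.2% and 23.8% of the mt-Nd4l count in WT replicate 3, Scd-1-/- replicate 1 and Scd-1-/- replicate 3. In the other libraries, where mt-Nd4l had 0 or 1 count, Gm10222 still had 194 and 216 counts (WT replicates 1 and 2) and 355 (Scd-1-/- replicate 2), against 213 to 403 elsewhere. The irregular counts of mt-Nd4l were thus not shared by its nuclear copy of the same sequence.

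**Figure D4:**
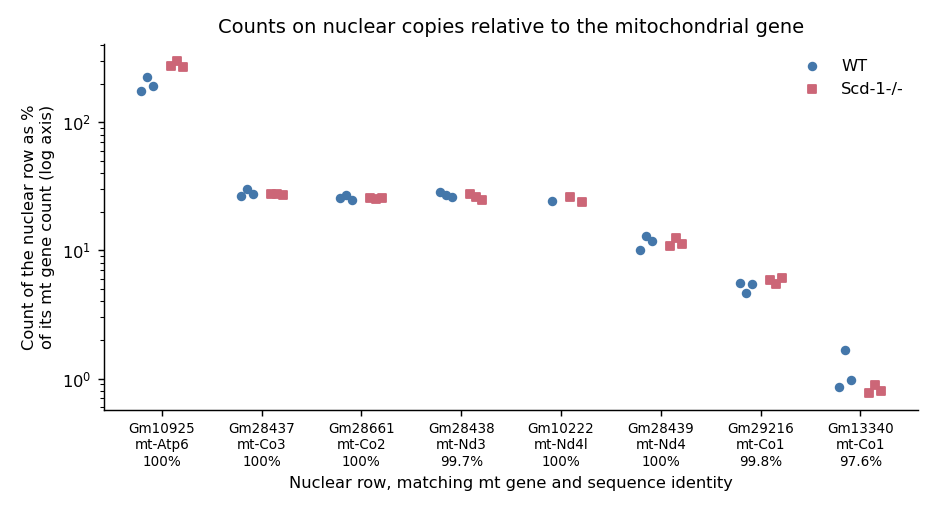
Count of each nuclear copy as a percent of the count of its mitochondrial gene, on a log axis, with a point per library (Gm10222 only for the 3 libraries in which mt-Nd4l had more than 1 count). Gm28437, Gm28661 and Gm28438 lie between 24.8% and 30.3% in all libraries, whereas Gm10925 lies between 174% and 303%, with the Scd-1-/- libraries above the WT libraries.

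Outside the stretch on chromosome 1, a copy of mt-Co1 differs more from its gene in sequence. Gm13340 on chromosome 2 (chr2:22588103-22589647, minus strand) spans the whole of mt-Co1 at 97.6% identity, with 37 mismatches over 1545 bases. The window of 60 bases shown for mt-Co1 and for both of its copies was picked as the one with the most differences from Gm13340 inside the stretch shared with Gm29216, with differences from mt-Co1 in capitals. Gm29216 has 0 differences in this window and Gm13340 has 3.
mt-Co1, chrM:6448-6507: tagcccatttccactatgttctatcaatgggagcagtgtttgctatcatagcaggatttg
Gm29216, chr1:24616071-24616130, minus strand: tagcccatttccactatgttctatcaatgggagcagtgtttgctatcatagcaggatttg
Gm13340, chr2:22588468-22588527, minus strand: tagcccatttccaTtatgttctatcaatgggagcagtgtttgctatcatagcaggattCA

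Gm13340 had 1136, 1811 and 1077 counts in WT and 1235, 1362 and 1724 in Scd-1-/- libraries, and its groups overlapped. These counts were 0.772% to 1.68% of those of mt-Co1, and Gm29216, which covers a part of the gene, had 4.66% or more. The reason for this difference was not tested. In all, 11 nuclear genes of at least 95% identity to a mitochondrial gene had a line in the tables, 7 of them in the stretch on chromosome 1. The copies other than Gm10925 held 0.185% of library counts in WT and 0.291% in Scd-1-/- libraries. With them added to the members, the share was 1.96% ± 0.0719 in WT and 3.07% ± 0.566 in Scd-1-/- cells (SD, n = 3 each). With the counts of all 11 copies summed into their mitochondrial genes, the log2 fold change of mt-Atp6 was 1.21 (SE 0.157), that of mt-Nd4 stayed at 1.08 (SE 0.204) and that of mt-Co3 at 0.80 (SE 0.234).

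The nuclear genes that serve the mitochondrial genome were then described, from lists written by function and not by how the genes moved. Of the genes for replication, packaging and transcription of mitochondrial DNA, 34 of 37 were expressed at 1 FPKM or more, and none passed an adjusted p under 0.05 in edgeR in either direction, as 0.114% of all genes tested did. At an unadjusted p under 0.05, 0 were higher and 2 lower, where 5.42% and 4.68% of all genes tested were higher and lower, and the list's median log2 fold change was -0.02. DESeq2 called 0 and the fit with the replicate block called 0. With the block, 0 were higher and 7 lower at an unadjusted p under 0.05, beside 11.3% and 11.2% of all genes tested. The 2 genes with the smallest p were Pprc1, a coactivator related to PGC-1, and Polg, the catalytic subunit of the mitochondrial DNA polymerase. Polg had 3.19, 4.09 and 3.38 FPKM in WT and 2.604, 2.77 and 1.96 in Scd-1-/- libraries, all below the WT values. Its log2 fold change was -0.52 (SE 0.183, adjusted p = 0.396 in edgeR without and 0.0567 with the replicate block). Pprc1 had 4.73, 6.30 and 8.36 FPKM in WT and 4.45, 3.67 and 4.45 in Scd-1-/- libraries. Its log2 fold change was -0.59 (SE 0.214, adjusted p = 0.405 in edgeR without and 0.0931 with the replicate block).

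None of the 9 textbook factors had an adjusted p under 0.05 in edgeR, without or with the replicate block. Without the block, Polg alone had an unadjusted p under 0.05. Polrmt, the mitochondrial RNA polymerase, had a log2 fold change of -0.15 (SE 0.279) and Tfam, which packages the DNA and opens its promoters, of 0.13 (SE 0.203). Peo1, the older symbol of Twnk for the replicative helicase Twinkle, had -0.57 (SE 0.403). Its adjusted p in edgeR was 0.704 without and 0.0558 with the replicate block. Of the RNA factors, Lrpprc and Slirp, which together stabilise mitochondrial messengers, had -0.00 (SE 0.281) and 0.12 (SE 0.215), and Mtpap, the mitochondrial poly(A) polymerase, had 0.25 (SE 0.155). The degradosome pair Pnpt1 and Supv3l1 had 0.18 (SE 0.244) and -0.32 (SE 0.226). Of the 9, 4 were above 0, and those of Polrmt, Tfam, Lrpprc and Slirp changed sign when certain libraries were left out.

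Of the genes for processing, stability and modification of mitochondrial RNA, 77 of 81 were tested. In edgeR none passed an adjusted p under 0.05, 2 were higher at an unadjusted p under 0.05 and 0 lower (5.42% and 4.68% of all genes tested), and the median log2 fold change was -0.02. With the replicate block 4 were higher and 4 lower at that level, beside 11.3% and 11.2% of all genes tested. The first 2 were Hsd17b10, a subunit of the RNase P complex that cuts the 5′ ends of transfer RNAs out of the precursor, and Ddx28, a helicase of the mitochondrial RNA granules. Hsd17b10 had 42.7, 52.4 and 58.7 FPKM in WT and 63.4, 72.2 and 76.6 in Scd-1-/- libraries, so that all Scd-1-/- values were above all WT values, with a log2 fold change of 0.49 (SE 0.151, adjusted p = 0.316 in edgeR). With the replicate number as a block it was the only gene of the list with an adjusted p under 0.05 (0.0343 in edgeR). Ddx28 had 14.8, 14.4 and 12.3 FPKM in WT and 19.4, 18.02 and 17.5 in Scd-1-/- libraries, with a log2 fold change of 0.43 (SE 0.157, adjusted p = 0.424 in edgeR).

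All 83 genes for proteins of the mitochondrial ribosome were tested. In edgeR none had an adjusted p under 0.05, 3 were higher and 0 lower at an unadjusted p under 0.05 (5.42% and 4.68% of all genes tested), and 60 of 83 were above 0, beside 49.9% of all genes tested, with a median log2 fold change of 0.09. With the replicate block 8 were higher and 1 lower at an unadjusted p under 0.05, beside 11.3% and 11.2% of all genes tested. The smallest p values were those of Mrpl33, a protein of the large subunit with 7.61, 7.75 and 8.26 FPKM in WT and 10.1, 10.2 and 10.97 in Scd-1-/- libraries, and of Mrps31, a protein of the small subunit. Mrpl33 had a log2 fold change of 0.43 (SE 0.120, adjusted p = 0.269 in edgeR and 0.0435 in DESeq2), and Mrps31 of 0.53 (SE 0.178, adjusted p = 0.375 in edgeR). Each had all Scd-1-/- values above all WT values.

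The nuclear partners of the mitochondrial subunits had a median log2 fold change of 0.07. It was 0.77 in the 14 members and 0.75 in the 11 heavy-strand genes other than mt-Nd4l. Of 78 nuclear-encoded subunits of complexes I, III, IV and V, 75 were tested, and in edgeR none had an adjusted p under 0.05. At an unadjusted p under 0.05, 2 were higher and 0 lower (5.42% and 4.68% of all genes tested), and 47 had a log2 fold change above 0, beside 49.9% of all genes tested. With the replicate block 10 were higher and 1 lower at that level, beside 11.3% and 11.2% of all genes tested. The first 2 were Ndufa13, a complex I subunit, with a log2 fold change of 0.31 (SE 0.118, adjusted p = 0.434 in edgeR), and Usmg5, a small subunit of ATP synthase, with 0.44 (SE 0.181, adjusted p = 0.473 in edgeR).

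Summed by complex and genome, the FPKM of the 7 mitochondrial subunits of complex I was 2702, 3232 and 3589.7 in WT and 4359.9, 5116 and 6705 in Scd-1-/- libraries, a ratio of 1.70. The 37 nuclear subunits of the same complex summed to 2345, 2205 and 2310.5 in WT and 2315, 2317 and 2497 in Scd-1-/- libraries, a ratio of 1.04 with overlapping groups. Ndufa4 stands in the lists of both complex I and complex IV and is counted once among the 78. For complex III the ratio was 1.65 for mt-Cytb and 0.974 for the 9 nuclear subunits, and for complex V it was 1.63 for mt-Atp6 and mt-Atp8 and 0.997 for the 18 nuclear subunits. In complex IV the ratio was 1.53 for the 3 mitochondrial subunits. Its 15 nuclear subunits summed to 2643, 2576 and 2688 FPKM in WT and 2832, 2848 and 2972 in Scd-1-/- libraries, a ratio of 1.09, and this was the only nuclear sum whose groups did not overlap. An exact permutation test of 3 against 3 libraries, two-sided, cannot give a p under 0.1.

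**Figure D5:**
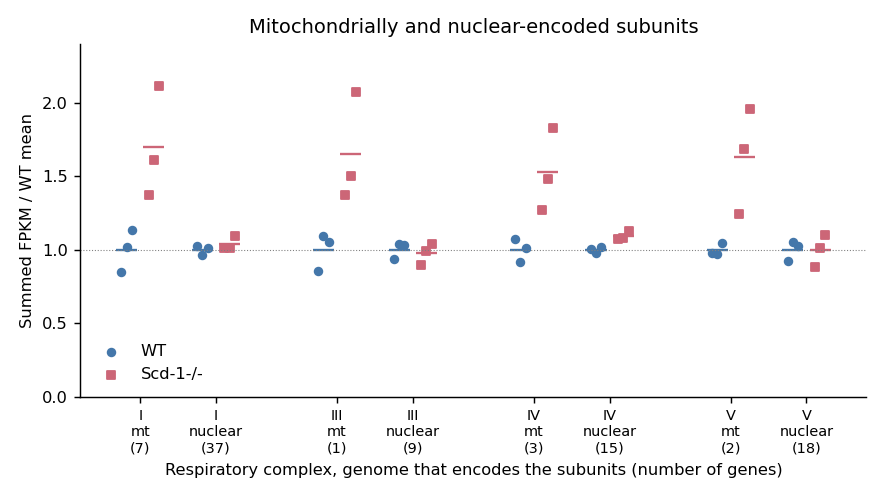
Summed FPKM of the subunits of complexes I, III, IV and V in each library, divided by the WT mean of the same sum, for subunits encoded in mitochondria (mt) and in the nucleus, with the number of genes below and a bar at each group mean. The mitochondrial sums are 1.53 to 1.70 times the WT mean in Scd-1-/- cells, and the nuclear sums 0.974 to 1.09 times.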

How the data were processed

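The authors sequenced RNA of 3 WT and 3 Scd-1-/- libraries and deposited, for each, counts and FPKM of 34745 Ensembl genes. Per the submitters' processing notes, reads were checked with FastQC, aligned to GRCm38 with HISAT2 and counted with StringTie (version 1.3.0). The strand setting and the treatment of reads with several matches are not given in the sources used here. The labels name Trizol, poly(A) RNA and a VAHTS kit, but according to the methods RNA was purified on columns and a stranded kit for total RNA was used. The way RNA was selected is therefore unsure, which bears on transcripts with short or no poly(A) tail.

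The 14 members, the gene lists and the tests were chosen with earlier results of these data known. The deposited counts of genes averaging 1 FPKM or more (9627 genes) were fitted with edgeR (version 4.0.16, quasi-likelihood, TMM factors 0.986 to 1.03, no block) in R (version 4.3.3), with Benjamini-Hochberg adjustment over all 9627. DESeq2 (version 1.42.0), limma (version 3.58.1) on log2(FPKM + 1) and log2(FPKM + 0.1), the replicate number as a block, median-ratio scaling, scaling without the members, no FPKM minimum and leaving out libraries were alternatives. The edgeR fits were tried on simulated libraries with the same dispersion for all genes. These lacked the offset of replicate 1 and any pairing, so nothing is read from that trial for the real libraries. Same-numbered libraries deviated together from their group means over the tested genes (r = 0.618, 0.324 and 0.493). By the rule used (every r above 0.1) the numbers were taken as pairing the libraries, but the main fit did not use them. Replicates 2 and 3 were not told apart by this check, since WT 3 with Scd-1-/- 2 had r = 0.423 and WT 2 with Scd-1-/- 3 had 0.190. No source says what the numbers stand for. No pair of libraries agreed within counting noise.

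Positions come from GENCODE M21 on GRCm38, matched by Ensembl ID for 34267 genes. Nuclear copies were found with BLAST (version 2.17.0) of nuclear against mitochondrial transcripts, as genes covered over at least 80% of their length, and used from 95% identity. Depth was 14034479 to 15866216 counts per library, so that 0 counts leave room for up to 3, which is 0.189 to 0.214 CPM. Named nuclear genes were those of each list with an adjusted p under 0.05 without or with the block or with the 2 smallest p, and 9 textbook factors. Nuclear copies named were the 7 on chromosome 1 and Gm13340, which exceeds the number of 6 set for them, and the others were added after their values were seen.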

Additional observations from a re-analysis of the deposited data

How the results depend on the processing

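The log2 ratio of the member share was 0.65. It was 0.66 against nuclear counts alone, 0.63 without Gm10925, 0.59 as a share of summed FPKM, 0.78 in replicates 2 and 3 alone and 0.65 with the other nuclear copies, and 0.50 to 0.76 when 1 library was left out. Share values without the 2 ribosomal RNA genes were not run, since those genes have no line in the tables. Members with an adjusted p under 0.05, beside the share of all genes called in either direction in the same fit, numbered 1 in edgeR (0.114%), 8 in DESeq2 (2.76%), 9 with the replicate block (4.7%), 12 in replicates 2 and 3 alone (11 higher, and mt-Nd6 lower, 12.6%), 0 with nuclear copies summed into their genes (0.0936%) and 7 with that sum and the replicate block (4.61%). When 1 library was left out they numbered 0 to 7 (0.0208% to 1.89%). With the copies summed, Gm10925 was no longer a row of its own. At the study's thresholds, again beside the share of all genes past them in either direction, the count was 2 (0.738%), against 1 in limma with either pseudocount (0.582% and 0.727%), 3 in replicates 2 and 3 alone (3.83%) and 1 to 4 when 1 library was left out (0.26% to 1.69%, with 4 members and 1.69% without Scd-1-/- replicate 1). The cause of these differences was not tested. Of the nuclear lists, with 0 calls in edgeR, the replicate block called 1 gene of RNA processing (Hsd17b10), with or without the copies summed, and DESeq2 called 1 ribosomal protein gene (Mrpl33). Replicates 2 and 3 alone called 3 genes of replication and transcription (Pprc1, Lonp1 and Peo1, all lower), 1 of RNA processing (Hsd17b10), 4 ribosomal protein genes (Mrpl33, Mrpl42, Mrps18c and Mrps31) and 2 respiratory chain genes (Usmg5 and Cox7a2), all of these higher. Lonp1, Mrpl42, Mrps18c, Cox7a2, Cd79b and Ndufa4 were named after their values were seen. Among the marker lists, the block added calls of Cd79b (lower) and of NK cell markers, and it changed no other call of a list. Leaving out 1 library gave 0 calls in each of the 4 nuclear lists. The log2 fold changes of the members and of the nuclear genes with the smallest p kept their sign under each alternative run. Of the textbook factors, none of them called in edgeR, 4 changed sign when 1 library was left out, with log2 fold changes of -0.384 to 0.0744 for Polrmt (above 0 without WT replicate 2 or Scd-1-/- replicate 1), -0.0303 to 0.278 for Tfam (below 0 without Scd-1-/- replicate 3), -0.0171 to 0.253 for Slirp (below 0 without WT replicate 2) and -0.169 to 0.236 for Lrpprc (above 0 without WT replicate 3 or Scd-1-/- replicate 1). Lrpprc was at 0.0545 in replicates 2 and 3 alone. Summing the nuclear copies was added after seeing the data. Counting error weighs on mt-Nd6, with 174 to 334 counts. The handling of reads shared with nuclear copies could not be examined from counts.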

Other observations

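Within the members, the make-up of the counts differed little between genotypes for most genes. Complex I took 14.4%, 17.998% and 17.7% of the member counts in WT and 17.7%, 17.7% and 18.003% in Scd-1-/- libraries, and mt-Cytb took 5.31% to 7.21% and 6.32% to 7.01%. Complex IV took 74.7%, 68.5% and 69.6% in WT and 68.4%, 68.0% and 67.3% in Scd-1-/- libraries. Gm10925 took 2.04%, 2.61% and 2.41% in WT and 3.66%, 3.92% and 3.76% in Scd-1-/- libraries, with mt-Nd4 at 1.62% to 2.23% and 2.52% to 2.84%. For mt-Nd6 the values were 0.0668%, 0.127% and 0.130% in WT and 0.0609%, 0.0578% and 0.0330% in Scd-1-/- libraries. In these parts Gm10925, mt-Nd4 and mt-Atp6 (1.15% to 1.25% in WT, 1.29% to 1.39% in Scd-1-/- libraries) were higher in all 3 Scd-1-/- libraries, and complex IV and mt-Nd6 lower in all 3.

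Other nuclear copies of at least 95% identity had few counts. Gm13339, a copy of a part of mt-Nd2 at 96.7% identity beside Gm13340 on chromosome 2, had 22 to 38 counts. Gm4076, a copy of a part of mt-Nd5 on chromosome 13, had 3 to 7, and Gm13341, a copy of mt-Co2, had at most 1. Gm28927 (81.6% identity to mt-Co3) and Gm20594 (88.4% to mt-Rnr2) had 0 in all libraries. These genes were named after their values were seen.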
